A study of Mus musculus with 12 samples.

Results

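Prostaglandin synthesis and receptor genes were followed through 4 groups of mouse cells. They were 9 genes, taken by symbol from a table of read counts for 49315 genes, and each matched 1 row of it. Ptgs1 and Ptgs2 encode the cyclooxygenases, Hpgds and Ptges encode prostaglandin D and E synthases, and Hpgd encodes the dehydrogenase that inactivates prostaglandins. Ptgir, Ptger2 and Ptger4 encode the prostacyclin receptor and the prostaglandin E receptors EP2 and EP4, and Ptgdr2 encodes CRTH2, a receptor for prostaglandin D2.

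Prostaglandins are made from arachidonic acid, which phospholipases free from membranes and cyclooxygenases oxidise to the common precursor PGH2. A terminal synthase then fixes which prostaglandin a cell releases, and the receptors on nearby cells fix the response. In type 2 immunity, prostaglandin D2 attracts and activates eosinophils and group 2 innate lymphoid cells (ILC2s) through CRTH2. Prostaglandin E2, at EP2 and EP4, and prostacyclin, at its receptor, instead raise cyclic AMP and are known to restrain ILC2s.

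RNA was sequenced from 12 libraries of C57BL/6 mouse cells, 3 in each group. The groups were ILC2s cultured with eosinophils, ILC2s cultured alone, eosinophils cultured with ILC2s and eosinophils cultured alone, each for 24 h in medium without cytokines. All ILC2s came from lung, were grown up with IL-25 and IL-33 beside IL-2 and IL-7, and were then kept for 48 h in the last pair before washing. All eosinophils came from blood, as the fraction left after B220 and CD90 bead capture, and had been kept for 24 h with IL-33 and washed, so no group held eosinophils without that cytokine and cell type, tissue and earlier cytokines cannot be told apart. Both cell types were sorted apart after coculture. Whether the replicates came from separate animals or cultures is not stated, and the p-values reflect only how far these libraries spread, which may be technical.

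Library totals were 16769929 to 22928961 counts. Levels are CPM (counts scaled to library size with TMM factors over all 12 libraries), and 3 counts in a library came to 0.105 to 0.200 CPM. Each population carried its defining genes. All 10 eosinophil markers stood at 1 CPM or more in both eosinophil groups, and all 10 ILC2 markers did so in both ILC2 groups. Summed eosinophil markers came to 2.39 to 3.40 CPM per library in cocultured ILC2s and 2.44 to 2.97 CPM in ILC2s alone. Summed ILC2 markers came to 632 to 663 CPM in cocultured eosinophils, with 3 of 10 at 1 CPM or more, and to 974 to 1008 CPM in eosinophils alone, with 5 of 10. Il1rl1, the IL-33 receptor gene, made up most of these, at 639 ± 16 CPM in cocultured eosinophils and 976 ± 18.3 CPM in eosinophils alone (SD, n = 3). In bulk libraries, fewer cells of a type and less RNA per cell cannot be told apart.

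The cyclooxygenase transcripts lay almost wholly in eosinophils and were of the Ptgs1 form. Ptgs1, the constitutive cyclooxygenase gene (ENSMUSG00000047250, chromosome 2, 36230426 to 36252272 on mm10), stood at 385, 376 and 386 CPM in eosinophils with ILC2s, against 582, 616 and 598 CPM in eosinophils alone. Every cocultured library lay below every library cultured alone. The log2 fold change was -0.68 ± 0.053 (SE, edgeR adjusted p = 5.3e-07), and Ptgs1 fell in cocultured eosinophils to 0.625 of the level alone. ILC2s held it at 0.978, 0.754 and 0.533 CPM with eosinophils, against 2.30, 2.30 and 1.19 CPM alone. That trace also fell, by 1.34 ± 0.33 on the log2 scale (edgeR adjusted p = 7.7e-04), and the groups did not overlap. The Ptgs1 level in cocultured ILC2s was 0.198% of that in cocultured eosinophils. There 10 eosinophil markers gave a median of 0.0186% (range 0% to 0.283%). Only Epx, with 3 counts in cocultured ILC2s, lay above Ptgs1. In ILC2s alone Ptgs1 was at 0.504% on the same scale, above the marker median of 0.0238% and the highest marker at 0.210%. The part of eosinophil RNA in these traces was not tested.

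Ptgs2, the inducible cyclooxygenase gene (ENSMUSG00000032487, chromosome 1, 150100031 to 150108227), was at the edge of detection in every group. It had 4, 2 and 5 counts in ILC2s with eosinophils, against 0, 2 and 2 counts in ILC2s alone. Eosinophils with ILC2s held 3, 9 and 10 counts, against 11, 17 and 9 counts in eosinophils alone. The neighbouring groups overlapped, and the gene was too low to be tested. Over the summed counts the ratio was 2.80 in cocultured ILC2s relative to ILC2s alone (95% counting interval 0.830 to 12.1) and 0.546 in cocultured eosinophils relative to eosinophils alone (0.307 to 0.951). In ILC2s alone relative to eosinophils alone it was 0.0714 (0.0185 to 0.199), and with no count filter Ptgs2 was called lower there (edgeR adjusted p = 3.3e-05). Such intervals cover counting error only. Per exon length, eosinophils alone held 424 ± 15.3 TPM of Ptgs1 and 0.469 ± 0.156 TPM of Ptgs2 (counts scaled to exon length and library, SD, n = 3), so their cyclooxygenase transcript was nearly all Ptgs1.

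Hpgds and Ptges were highest in ILC2s cultured alone and fell in ILC2s beside eosinophils. Hpgds, the haematopoietic prostaglandin D synthase gene (ENSMUSG00000029919, chromosome 6, 65117293 to 65144908), stood at 12.4, 10.9 and 14.5 CPM in ILC2s with eosinophils, against 56.9, 66.0 and 62.0 CPM in ILC2s alone. The 6 libraries fell into 2 sets far apart, and the gene fell by 2.29 ± 0.080 on the log2 scale (edgeR adjusted p = 1.4e-20). In eosinophils it stood at 0.679, 0.899 and 0.853 CPM with ILC2s, against 0.801, 0.985 and 0.186 CPM alone. Those groups overlapped and no change was called (log2 fold change 0.27 ± 0.51, edgeR adjusted p = 0.753). The trace in cocultured eosinophils was 6.42% of the level in cocultured ILC2s, where 9 ILC2 markers gave 0.0441% to 2.51%. The tenth, Il1rl1, was left out of that range, and at 639 CPM in cocultured eosinophils and 2609 CPM in cocultured ILC2s its share was larger than that of Hpgds. ILC2s alone held 93.8-fold more Hpgds than eosinophils alone (log2 fold change 6.55 ± 0.20, edgeR adjusted p = 1.6e-13). Cocultured ILC2s held 15.3-fold more than cocultured eosinophils (3.94 ± 0.20, edgeR adjusted p = 6.1e-17). Eosinophils had only 31 counts alone and 42 with ILC2s over 3 libraries each, so these calls add nothing to the levels.

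Ptges, the gene of the microsomal prostaglandin E synthase (ENSMUSG00000050737, chromosome 2, 30889471 to 30929863), was low but followed the same course in ILC2s. It stood at 0.425, 1.11 and 0.656 CPM in ILC2s with eosinophils, against 3.07, 3.96 and 4.50 CPM in ILC2s alone. No library of one group reached the other, and the fall was 2.42 ± 0.28 on the log2 scale (edgeR adjusted p = 8.3e-09). Eosinophils held 1.36, 1.41 and 1.48 CPM with ILC2s, against 1.94, 1.60 and 1.92 CPM alone, which did not pass the test (log2 fold change -0.39 ± 0.30, edgeR adjusted p = 0.394). Its rank between the cells therefore differed with culture. ILC2s alone were above eosinophils alone (log2 fold change 1.09 ± 0.25, edgeR adjusted p = 8.6e-04), and cocultured ILC2s were below cocultured eosinophils (-0.97 ± 0.36, edgeR adjusted p = 0.0158). The call in coculture rests on few counts, 51 in cocultured ILC2s and 73 in cocultured eosinophils over 3 libraries each. It did not pass with library totals alone (edgeR adjusted p = 0.143), with upper quartile scaling (0.0519) or without replicate 1 (0.111) or replicate 3 (0.0623) of the cocultured ILC2s.

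The promoters of these synthase genes are shown because both fell together in ILC2s. They run from 250 bases before to 50 bases after the RefSeq start on GRCm38.p6, 5′ to 3′ along the gene, with matches to the searched motifs in capitals. The outermost GENCODE start lies 178 bases from the RefSeq start for Hpgds and 26566 bases from it for Ptges.
Hpgds, chr6:65144681-65144980, minus strand: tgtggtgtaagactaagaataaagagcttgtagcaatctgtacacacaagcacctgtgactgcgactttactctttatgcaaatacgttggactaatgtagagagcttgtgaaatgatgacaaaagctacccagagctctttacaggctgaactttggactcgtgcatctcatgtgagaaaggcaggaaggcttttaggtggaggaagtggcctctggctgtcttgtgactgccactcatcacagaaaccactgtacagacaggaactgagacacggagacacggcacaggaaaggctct
Ptges, chr2:30903248-30903547, minus strand: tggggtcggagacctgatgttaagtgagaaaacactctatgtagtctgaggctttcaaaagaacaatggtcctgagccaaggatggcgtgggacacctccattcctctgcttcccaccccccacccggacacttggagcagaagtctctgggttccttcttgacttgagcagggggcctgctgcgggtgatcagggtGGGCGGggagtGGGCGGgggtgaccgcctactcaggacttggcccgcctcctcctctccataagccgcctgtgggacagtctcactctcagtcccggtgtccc
The letters searched on both strands were the TATA box TATAAA, the GC box GGGCGG, the cyclic AMP response element TGACGTCA and its core TGACG (which the longer element contains), AGATAA for GATA factors, TTCNNNGAA for STAT factors, TGANTCA for AP-1, the E-box CACGTG and an NF-kB motif. The Hpgds window held none of these letters. The Ptges window held GGGCGG at 53 and 42 bases before the start, letters found in 35.7% of 32851 mouse promoters of this length. TGACG was in 20.8%, TATAAA in 13.6%, AGATAA in 11.2%, TTCNNNGAA in 8.30%, TGANTCA in 7.81%, CACGTG in 7.15%, TGACGTCA in 1.79% and the NF-kB motif in 0.411%. Of the 9 promoters, all matched by symbol, 6 held GGGCGG, that of Hpgd alone held TATAAA, and that of Ptgs2 alone held TGACG and CACGTG, which overlap there. None of the 9 held the other motifs.

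Hpgd, whose enzyme starts prostaglandin breakdown (ENSMUSG00000031613, chromosome 8, 56294585 to 56321043), was nearly absent. It had 10, 3 and 2 counts in ILC2s with eosinophils, against 0, 0 and 1 count in ILC2s alone. Eosinophils had 0 counts with ILC2s, against 3, 0 and 0 counts alone. Each cocultured ILC2 library lay above each library of ILC2s alone, and 1 of them held 10 of their 15 counts. At 0.200 CPM, 1 library of eosinophils alone lay above the 2 lower cocultured ILC2 libraries, at 0.133 and 0.0820 CPM. The ratio of summed counts in cocultured ILC2s relative to ILC2s alone was 15.3 (95% counting interval 2.35 to 643). Against cocultured eosinophils, at 0, those 15 counts were at least 3.66-fold higher, with a floor of 3 counts over the group. The gene lay below the count filter and was not tested. With no filter it was called higher in cocultured ILC2s than in ILC2s alone (edgeR adjusted p = 0.0223) and than in cocultured eosinophils (0.0069).

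**Figure D1:**
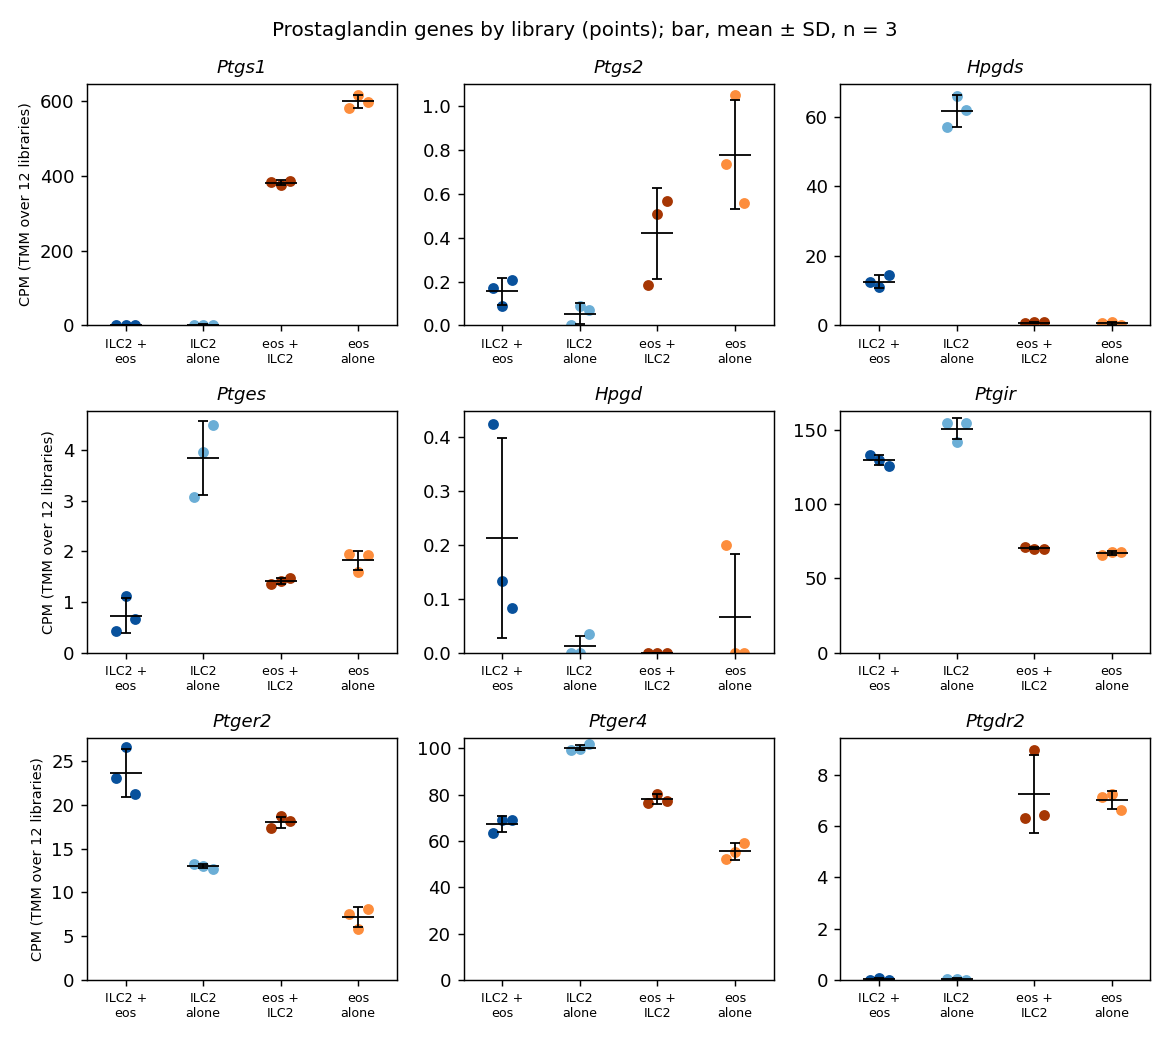
CPM of each of the 9 genes (vertical axes, linear from 0, a different range in each panel) in the 4 groups, 1 point per library, with mean ± SD of n = 3 as black bars. Ptgs1 and Ptgdr2 belong to the eosinophil libraries and Hpgds to the ILC2 libraries, where the 3 cocultured libraries lie at 10.9 to 14.5 CPM and the 3 cultured alone at 56.9 to 66.0 CPM.

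The receptor genes were expressed by both cells, apart from Ptgdr2. Ptgir, the prostacyclin receptor gene (ENSMUSG00000043017, chromosome 7, 16906490 to 16910905), had the highest level per exon length of the 4 receptors in all 12 libraries. On that scale it averaged 138 ± 6.89 TPM in ILC2s with eosinophils, 205 ± 7.71 TPM in ILC2s alone, 61.1 ± 0.888 TPM in eosinophils with ILC2s and 55.5 ± 1.15 TPM in eosinophils alone (SD, n = 3). Ptger4 followed, at 35.8 ± 1.44 and 68.5 ± 3.16 TPM in ILC2s with eosinophils and alone, and at 34.0 ± 1.60 and 22.9 ± 0.923 TPM in eosinophils with ILC2s and alone. Ptger2 averaged 16.1 ± 2.10 TPM in ILC2s with eosinophils and 11.3 ± 0.335 TPM in ILC2s alone. In eosinophils Ptger2 averaged 10.1 ± 0.549 TPM with ILC2s and 3.79 ± 0.574 TPM alone.

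Ptgir moved little with TMM scaling. It stood at 133, 129.8 and 126 CPM in ILC2s with eosinophils, against 155, 142 and 155 CPM in ILC2s alone, a fall of 0.23 ± 0.041 on the log2 scale (edgeR adjusted p = 1.8e-05). With library totals alone the log2 fold change was -0.38 (edgeR adjusted p = 1.7e-09). The TPM above, which used no TMM, also differed more between the ILC2 groups, so the size of this fall depends on the scaling. Eosinophils held 71.0, 69.9 and 70.0 CPM with ILC2s, against 65.9, 68.1 and 68.0 CPM alone. Their ranges were separate by a small margin and no change was called (log2 fold change 0.03 ± 0.062, edgeR adjusted p = 0.757). ILC2s held more than eosinophils both alone (log2 fold change 1.17 ± 0.061, edgeR adjusted p = 9.9e-11) and in coculture (0.88 ± 0.051, edgeR adjusted p = 1.4e-15).

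Ptger2, the EP2 gene (ENSMUSG00000037759, chromosome 14, 44988195 to 45003820), was the only one of the 9 that rose in both cell types. It stood at 23.1, 26.6 and 21.2 CPM in ILC2s with eosinophils, against 13.2, 13.0 and 12.7 CPM in ILC2s alone (log2 fold change 0.86 ± 0.091, edgeR adjusted p = 1.4e-09). Eosinophils held 17.4, 18.7 and 18.1 CPM with ILC2s, against 7.55, 5.85 and 8.10 CPM alone (log2 fold change 1.30 ± 0.13, edgeR adjusted p = 5.9e-06). All cocultured libraries lay above all libraries of the same cell cultured alone. The order of its levels was cocultured ILC2s, cocultured eosinophils, ILC2s alone and eosinophils alone, and no neighbouring ranges overlapped. With library totals alone the middle pair changed places, at 15.4 CPM in cocultured eosinophils and 16.2 CPM in ILC2s alone. Of 9 ILC2 markers without Il1rl1, the median in cocultured eosinophils stood at 0.100% of its level in cocultured ILC2s (range 0.0441% to 2.51%). In eosinophils alone, on the same scale, the median was 0.206% (0.110% to 4.46%). The part of ILC2 RNA in the Ptger2 level was not tested.

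Ptger4, the EP4 gene (ENSMUSG00000039942, chromosome 15, 5206661 to 5244187), moved in opposite directions in the 2 cells. ILC2s held 63.3, 69.2 and 69.2 CPM with eosinophils, against 99.3, 99.9 and 102 CPM alone, a fall of 0.58 ± 0.046 on the log2 scale (edgeR adjusted p = 2.6e-12). Eosinophils held 76.6, 80.5 and 77.1 CPM with ILC2s, against 52.0, 55.4 and 59.1 CPM alone, a rise of 0.46 ± 0.068 (edgeR adjusted p = 1.9e-04). None of these groups overlapped. ILC2s alone were above eosinophils alone (log2 fold change 0.86 ± 0.064, edgeR adjusted p = 8.4e-09). In coculture the ILC2s were below the eosinophils with TMM scaling (-0.22 ± 0.056, edgeR adjusted p = 6.4e-04), but the sign turned with library totals alone (0.17, edgeR adjusted p = 0.00632) and upper quartile scaling gave -0.02 (0.692), so that order depends on the scaling. In that comparison the median over all genes shifted by 0.40 on the log2 scale with library totals.

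The ratio of the EP4 to the EP2 gene within a library does not depend on scaling, and it was examined after the values were seen. Per exon length, Ptger4 over Ptger2 was 2.14, 2.03 and 2.55 in ILC2s with eosinophils, against 5.89, 6.02 and 6.23 in ILC2s alone. In eosinophils it was 3.45, 3.37 and 3.32 with ILC2s, against 5.39, 7.40 and 5.70 alone. Every cocultured library had a lower ratio than every library of the same cell cultured alone, which is given as a description, with no test. Between the cells cultured alone the ratios overlapped, averaging 6.05 ± 0.176 in ILC2s and 6.16 ± 1.08 in eosinophils (SD, n = 3).

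The promoters of the EP2 and EP4 genes are shown because they moved together in eosinophils and apart in ILC2s, drawn and marked as those of the synthases. The GENCODE start of Ptger2 lies 84 bases from the RefSeq start, and for Ptger4 both starts are the same base.
Ptger2, chr14:44987861-44988160, plus strand: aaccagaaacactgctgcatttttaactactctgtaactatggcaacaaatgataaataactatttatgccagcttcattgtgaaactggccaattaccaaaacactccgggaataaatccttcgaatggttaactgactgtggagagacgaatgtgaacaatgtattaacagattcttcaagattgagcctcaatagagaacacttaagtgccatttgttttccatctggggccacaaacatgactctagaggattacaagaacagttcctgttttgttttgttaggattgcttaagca
Ptger4, chr15:5244138-5244437, minus strand: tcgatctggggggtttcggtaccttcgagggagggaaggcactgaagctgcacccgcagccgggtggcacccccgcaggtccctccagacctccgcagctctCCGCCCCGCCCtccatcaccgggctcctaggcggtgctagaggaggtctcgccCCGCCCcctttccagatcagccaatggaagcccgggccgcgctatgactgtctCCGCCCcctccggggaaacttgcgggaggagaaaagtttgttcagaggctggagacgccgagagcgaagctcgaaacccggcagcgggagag
The Ptger2 window held 37.7% G and C and none of the searched letters, whereas the Ptger4 window held 67.0% G and C and GGGCGG on the opposite strand at 148, 143, 95 and 42 bases before the start, the first pair overlapping. The median of all promoters was 52.7% G and C.

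Ptgdr2, the CRTH2 gene (ENSMUSG00000034117, chromosome 19, 10937160 to 10942511), was an eosinophil transcript here and nearly absent from ILC2s. ILC2s had 0, 2 and 0 counts with eosinophils, against 1, 1 and 0 counts alone. Eosinophils held 6.30, 8.99 and 6.42 CPM with ILC2s, against 7.14, 7.26 and 6.62 CPM alone, and these groups overlapped (log2 fold change 0.02 ± 0.17, edgeR adjusted p = 0.955). The 2 counts in ILC2s alone and 332 in eosinophils alone made the eosinophil level 251 times the ILC2 level (95% counting interval 69.0 to 2084). In coculture, 2 and 375 counts gave 256 times (70.4 to 2123). Of its exon bases, 39.0% are also exon of Ccdc86 on the other strand, and the strand setting of the counting is not given in the sources used here. Ccdc86 averaged 243 counts in cocultured ILC2s and 159 in ILC2s alone, libraries in which Ptgdr2 had 0 to 2, and 453 counts in cocultured eosinophils and 392 in eosinophils alone. Its part in the Ptgdr2 counts was not tested.

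Basophils and mast cells also carry CRTH2, and their markers were measured beside it. Of 11 such markers 6 stood at 1 CPM or more in the eosinophil groups, and they summed to 115 to 128 CPM per library in eosinophils with ILC2s, against 231 to 262 CPM alone. Gata2 made up most of that sum, at 94.1 ± 4.63 CPM with ILC2s and 184 ± 13.3 CPM alone (SD, n = 3), and eosinophils themselves express it. Of the 6, Gata2, Hdc (16.7 ± 2.05 CPM with ILC2s and 40.1 ± 4.66 CPM alone), Kit (3.15 ± 0.937 and 13.7 ± 1.42 CPM) and Fcer1a (101 and 211 counts) were lower in coculture (edgeR adjusted p of 0.0015 or less). Ms4a2, at 4.07 ± 0.517 CPM with ILC2s and 3.36 ± 0.610 CPM alone, and Cpa3, with 60 and 57 counts, were not called. The other 5 had 24 counts or fewer over the 3 libraries of either group, with Prss34, Tpsb2 and Mcpt4 at 0 with ILC2s and Mcpt4 at 0 alone. The sum was lower in coculture while Ptgdr2 was not called, and the part of such cells in the Ptgdr2 level was not tested. Platelets carry Ptgs1, and their 8 markers summed to 583 to 604 CPM per library in eosinophils with ILC2s, against 585 to 649.9 CPM alone. Itga2b carried nearly all of that, at 589 ± 11.2 CPM with ILC2s and 609 ± 34.2 CPM alone (SD, n = 3), and was not called. Ppbp was higher in coculture (43 counts with ILC2s and 6 alone, edgeR adjusted p = 0.00963), where Ptgs1 was lower, and Pf4 had 34 and 11 counts. The other 5 had 42 counts or fewer in either group, and the part of platelets in the Ptgs1 level was not tested.

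Other cell markers differed between the eosinophil groups in which Ptger2 and Ptger4 rose. The 7 neutrophil markers summed to 705 to 799.8 CPM per library in eosinophils with ILC2s, against 111 to 149.6 CPM alone. Retnlg carried nearly all of that, at 752 ± 50.7 CPM with ILC2s and 115 ± 17.3 CPM alone (SD, n = 3). S100a8 (1.32 ± 0.299 CPM with ILC2s and 4.51 ± 1.27 CPM alone) and S100a9 (2.39 ± 0.409 and 6.08 ± 2.13 CPM) were instead lower. Ly6g (1.72 ± 0.897 and 2.71 ± 1.19 CPM), Ltf (32 and 50 counts) and Ngp (4.76 ± 1.15 and 4.42 ± 1.16 CPM) were not called. Camp had 0 counts in both groups. The 9 monocyte and macrophage markers summed to 595 to 631 CPM with ILC2s, against 515 to 596 CPM alone. Csf1r made up most of that sum, at 481 ± 17.2 and 441 ± 28.6 CPM, and was not called. Lyz2 was higher in coculture, at 76.6 ± 5.28 CPM with ILC2s and 12.2 ± 3.16 CPM alone (edgeR adjusted p = 5.6e-09). Ly6c2 (23.1 ± 1.49 and 49.4 ± 5.80 CPM) and Fcgr1 (17.7 ± 2.19 and 34.9 ± 3.37 CPM) were lower (edgeR adjusted p = 9.8e-07 and 9.5e-06). The part of such cells in the receptor levels was not tested. In ILC2s, where Hpgds and Ptges fell, Kit stood at 55.4 ± 6.07 CPM with eosinophils and 133 ± 6.15 CPM alone. Kit and Cpa3 (23 and 68 counts) were lower (edgeR adjusted p = 4.0e-18 and 0.0034), and Hdc (41 and 23 counts) was not called. The rest of the 11 basophil and mast cell markers were too low to be tested in ILC2s. Mcpt8 had 23 counts with eosinophils and 5 alone, Fcer1a 10 and 0, Ms4a2 7 and 0, and Prss34 6 and 0. Gata2 had 9 and 11, Cma1 0 and 3, and Tpsb2 and Mcpt4 had 0 in both. Of the T cell markers, Cd3g (81.1 and 69.2 CPM) and Cd3d (71 and 31 counts) were higher (edgeR adjusted p = 2.0e-04 and 0.014). Cd3e (3.68 and 4.37 CPM) and Trac (79 and 121 counts) were not called. Cd4 (2 and 4 counts) and Cd8a (4 and 0 counts) were too low to be tested. The part of such cells in the ILC2 levels was not tested.

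**Figure D2:**
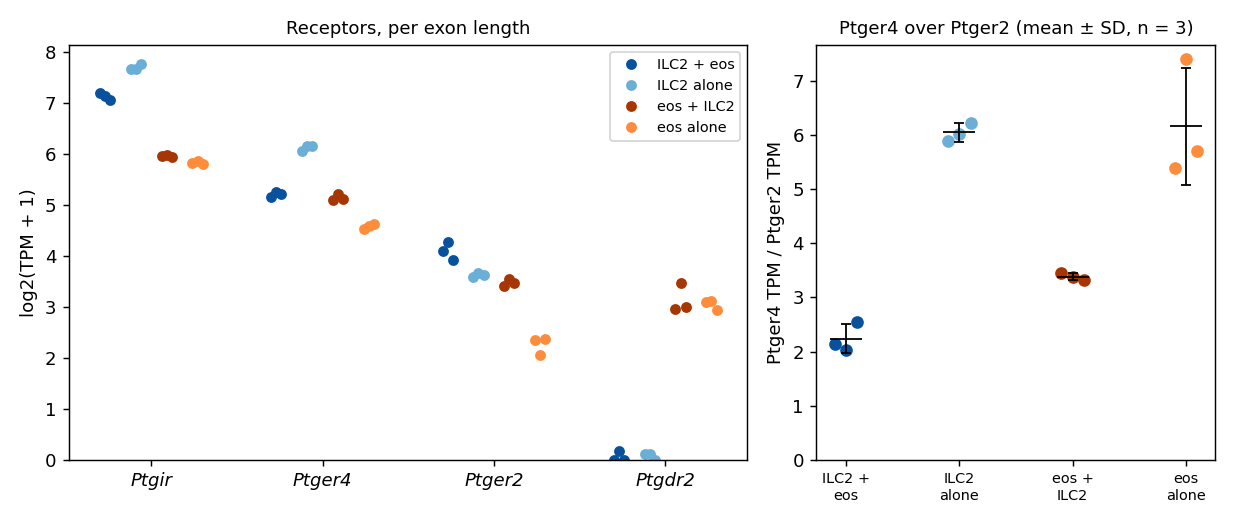
Left, receptor levels per exon length on a log2(TPM + 1) axis, 1 point per library, for the 4 receptor genes in the 4 groups. Right, Ptger4 TPM over Ptger2 TPM within each library with mean ± SD (n = 3), where the cocultured libraries of ILC2s (2.03 to 2.55) and of eosinophils (3.32 to 3.45) lie below those of the same cells alone (5.39 to 7.40 over both).

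Read against all genes, ILC2s changed broadly. Of 14438 genes tested in ILC2s with eosinophils against ILC2s alone, 72.4% were called at an edgeR adjusted p under 0.05, 36.8% higher and 35.6% lower. Of the 9 prostaglandin genes 6 could be tested and all 6 were called, 1 higher (Ptger2) and 5 lower (Ptgs1, Hpgds, Ptges, Ptgir and Ptger4), with median log2 fold change -0.96 over the 6 and 0.00 over all genes. In eosinophils with ILC2s against eosinophils alone, 24.9% of 13109 genes were called, 11.4% higher and 13.5% lower. There 7 of the 9 were tested, 2 were higher (Ptger2 and Ptger4), 1 was lower (Ptgs1) and 4 were not called, with median log2 fold change 0.03 over the 7 and 0.00 over all genes.

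Between the cells cultured alone, 80.7% of 14525 genes were called, 40.8% higher in ILC2s and 39.9% lower. All 7 tested prostaglandin genes were called, with Hpgds, Ptges, Ptgir, Ptger2 and Ptger4 higher in ILC2s and Ptgs1 (log2 fold change -8.31 ± 0.14, edgeR adjusted p = 1.3e-16) and Ptgdr2 lower. Ptgdr2 passed the count filter there through eosinophils and Hpgds through ILC2s, so their calls add nothing to their levels. Ptgs1 had 133 counts in ILC2s alone and 28402 in eosinophils alone, and its call likewise adds nothing to its levels. Between the cocultured cells, 84.0% of 14634 genes were called, 43.6% higher in ILC2s and 40.5% lower. Of the 7 tested there, Hpgds, Ptgir and Ptger2 (0.38 ± 0.094, edgeR adjusted p = 5.9e-04) were higher in ILC2s, and Ptgs1, Ptges, Ptger4 and Ptgdr2 lower, Ptges and Ptger4 with the limits given above. Ptgdr2, with 2 counts in cocultured ILC2s and 375 in cocultured eosinophils, passed the count filter there through eosinophils. Ptgs1 had 53 and 19702 counts, and Hpgds 893 and 42. The calls of these genes in coculture add nothing to their levels. These comparisons share libraries with those of coculture.

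Whether a gene responded differently in the 2 cells was tested over all 12 libraries as the ILC2 response minus the eosinophil response. Of 15745 genes tested, 51.5% were called, 26.8% higher and 24.8% lower. Among the 7 prostaglandin genes tested, 6 were called, all with a lower response in ILC2s. The difference was -2.60 ± 0.43 for Hpgds (edgeR adjusted p = 2.1e-05), -2.04 ± 0.43 for Ptges (3.5e-04) and -1.07 ± 0.084 for Ptger4 (1.7e-10) on the log2 scale. Ptgir (-0.28 ± 0.076, edgeR adjusted p = 0.00323), Ptger2 (-0.47 ± 0.16, 0.0191) and Ptgs1 (-0.65 ± 0.26, 0.0369) were closer to the threshold. The call of Ptgs1 was lost with limma-voom (adjusted p = 0.160) and without any 1 of 6 libraries (edgeR adjusted p = 0.0512 to 0.200), and that of Ptger2 without replicate 3 of the cocultured ILC2s (0.0583) or replicate 2 of the eosinophils alone (0.0790). The Ptgs1 difference also rests on a trace in ILC2s, 53 counts with eosinophils and 133 alone. That of Hpgds rests on a trace in eosinophils, 42 counts with ILC2s and 31 alone. Ptgdr2 was not called (-0.03 ± 1.9, edgeR adjusted p = 1).

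**Figure D3:**
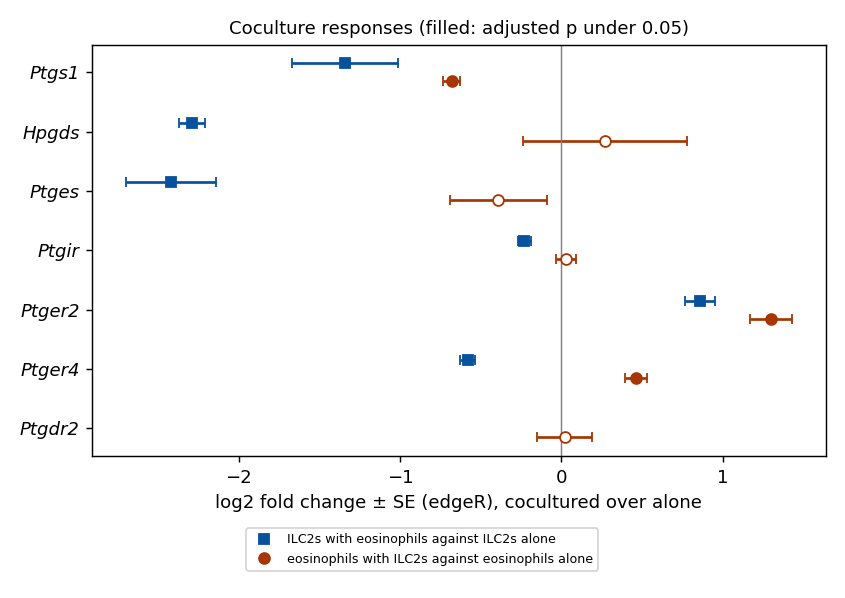
Log2 fold change ± SE of each tested prostaglandin gene (horizontal axis) in ILC2s with eosinophils against ILC2s alone (squares) and in eosinophils with ILC2s against eosinophils alone (circles), filled where the edgeR adjusted p was under 0.05. Ptger2 lies right of 0 in both cells, Ptgs1 left of 0 in both, and Ptger4 at -0.58 in ILC2s and 0.46 in eosinophils.

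The other genes of the pathway were taken from 5 lists with 56 genes in the table. In ILC2s with eosinophils against ILC2s alone 45 could be tested, of which 21 were higher and 17 lower (median log2 fold change 0.12, against 0.00 over all genes). Over all genes 36.8% were higher and 35.6% lower in that comparison, and the counts of each list are to be read against those shares. In eosinophils 42 could be tested, of which 12 were higher and 5 lower (median 0.04, against 0.00), where 11.4% of all genes were higher and 13.5% lower.

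Of 11 genes that release or recycle arachidonic acid, 8 were tested in ILC2s, 5 higher and 2 lower. The acyltransferase gene Lpcat3, which places arachidonic acid in membrane lipids, stood at 266 ± 4.64 CPM in ILC2s with eosinophils and 88.8 ± 3.83 CPM alone (SD, n = 3, log2 fold change 1.57 ± 0.040). Mgll, the monoacylglycerol lipase gene, and the secreted phospholipase gene Pla2g12a also rose (1.08 ± 0.069 and 1.22 ± 0.086). In eosinophils 8 were tested, 1 higher and 3 lower, with Daglb, a diacylglycerol lipase gene, higher (0.61 ± 0.069) and Pla2g12a (-0.62 ± 0.15) and Lpcat3 (-0.18 ± 0.054) lower. Pla2g4a, the cytosolic phospholipase A2 gene that supplies cyclooxygenase, was chosen after its values were seen. It lay with Ptgs1 in eosinophils, at 145 ± 3.91 CPM with ILC2s and 140.3 ± 6.85 CPM alone (SD, n = 3), and had 23 counts in all cocultured ILC2s and 5 in all ILC2s alone.

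Of the other synthases 5 could be tested in ILC2s, with Ptges3 higher (0.27 ± 0.046), Cbr1 lower (-0.67 ± 0.085) and 3 not called, among them Akr1b3 (0.08 ± 0.047). In eosinophils Akr1b3, an aldo-keto reductase gene, was higher (0.34 ± 0.081) and the 4 others tested were not called, including Cbr1 (0.17 ± 0.10) and Ptges3 (0.07 ± 0.061). Tbxas1, the thromboxane synthase gene, was also named after its values were seen. It stood at 413 ± 3.28 CPM in eosinophils with ILC2s and 411 ± 11.9 CPM in eosinophils alone (SD, n = 3), and at 0.228 ± 0.0927 and 0.377 ± 0.191 CPM in ILC2s with eosinophils and alone. Ptgds, the lipocalin-type prostaglandin D synthase gene, had 16 counts or fewer in each group, and Ptgis, the prostacyclin synthase gene, had 0 in all libraries.

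Of the other receptors, 4 were tested in ILC2s, 2 higher and 2 lower. Pparg, the gene of a nuclear receptor that prostaglandin D2 products can bind, stood at 186 ± 2.85 CPM with eosinophils and 104 ± 2.45 CPM alone (SD, n = 3, log2 fold change 0.83 ± 0.039). Ptger3, the EP3 gene, stood at 5.01 ± 0.189 and 1.74 ± 0.377 CPM (1.53 ± 0.19), and Ptger1, the EP1 gene, at 14.7 ± 1.68 and 20.3 ± 1.71 CPM (-0.47 ± 0.094), in ILC2s with eosinophils and alone. The fourth, the thromboxane receptor gene Tbxa2r, was lower (-1.72 ± 0.35). Neither of the 2 tested in eosinophils was called, Ptger1 (-0.28 ± 0.10, edgeR adjusted p = 0.0649) and Pparg (-0.42 ± 0.44, 0.548). Ptgdr, the gene of DP1, the other prostaglandin D2 receptor, had 0 counts in cocultured ILC2s, 2 in ILC2s alone, 2 in cocultured eosinophils and 1 in eosinophils alone.

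Of 4 transport and reduction genes 3 were tested in ILC2s, where 36.8% of all genes were higher, and all 3 were higher, namely Ptgr2 (0.52 ± 0.065), Ptgr1 (1.58 ± 0.25) and the exporter gene Abcc4 (0.33 ± 0.075). In eosinophils Abcc4 was higher (0.36 ± 0.084), and Ptgr1 (0.97 ± 0.53) and Ptgr2 (0.00 ± 0.072) were not called. Of the cyclic AMP pathway, which EP2, EP4 and the prostacyclin receptor use, 25 genes were tested in ILC2s, 10 higher and 12 lower, and 24 in eosinophils, 9 higher and 2 lower. Pde7a, a cyclic AMP phosphodiesterase gene, was lower in ILC2s (-1.67 ± 0.044) and in eosinophils (-0.77 ± 0.068). Prkar2b, a regulatory subunit gene of protein kinase A, was higher in both (1.97 ± 0.094 and 0.82 ± 0.094). Arrb2, a receptor-desensitising arrestin gene, was lower in ILC2s (-1.16 ± 0.038) and not called in eosinophils (0.06 ± 0.065). Pde3b was higher in eosinophils (0.44 ± 0.063) and lower in ILC2s (-0.54 ± 0.037). The phosphodiesterase genes Pde4a, Pde4b and Pde4d, named after their values were seen, were likewise called higher in eosinophils and lower in ILC2s. Pde8a, named in the same way, was lower in ILC2s (-0.46 ± 0.063) and not called in eosinophils.

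**Figure D4:**
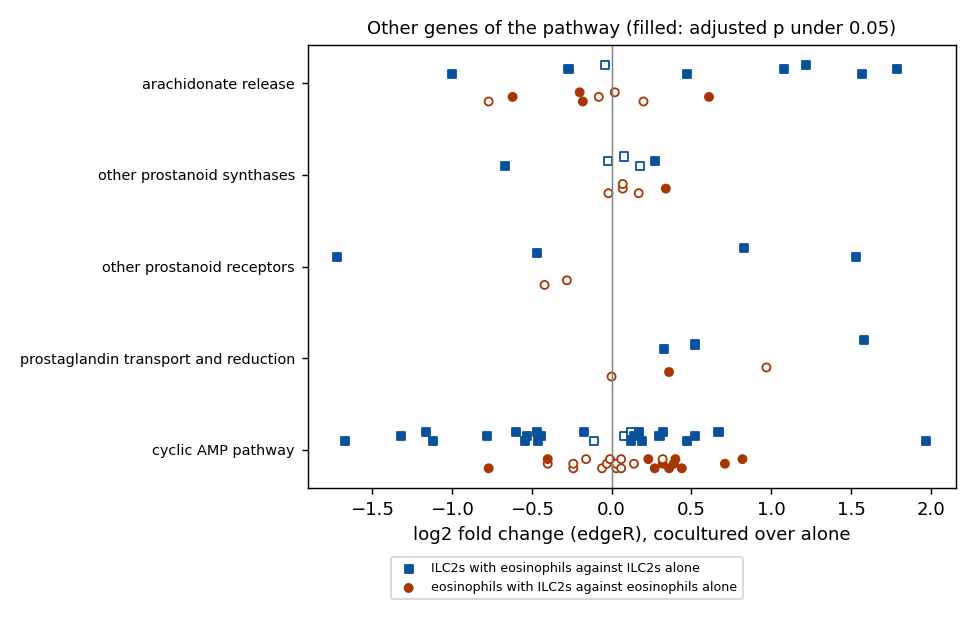
Log2 fold change (horizontal axis) of each tested gene of the 5 other pathway lists (rows) in ILC2s with eosinophils against ILC2s alone (squares) and eosinophils with ILC2s against eosinophils alone (circles), filled where the edgeR adjusted p was under 0.05. The 3 transport and reduction genes lie right of 0 in ILC2s, and the cyclic AMP genes spread from -1.67 to 1.97 in ILC2s.

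Genes with the most similar pattern over the 12 libraries were found by the root mean square difference of log2(CPM + 1), each gene centred on its own mean, among 12881 genes averaging 1 CPM or more. For Hpgds they were Mtcl1 (0.20) and Trdv4 (0.25), and for Ptgs1 they were Ipcef1 (0.26) and Bank1 (0.28). Ptges was nearest to Fbxl12 (0.17) and Flt3l (0.18), and Ptger2 to Arhgef39 (0.16) and Glipr1 (0.22). Ptger4 was nearest to Calcoco1 (0.08) and Trp53i11 (0.08), Ptgir to Uri1 (0.06) and Bmpr1a (0.06), and Ptgdr2 to Ncoa4 (0.10) and Dennd4a (0.12). Ptgs2 and Hpgd were too low to be compared. The 12 points are 4 groups of 3 libraries, so these distances describe the groups.

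Other overlaps with neighbouring genes covered at most 15.3% of the exon bases of a prostaglandin gene. The antisense genes Gm17173 and Gm49364 share 4.74% and 2.77% of the exon bases of Ptger2, Gm43621 shares 3.81% of those of Ptgs1, and Ttc33 shares 1.23% of those of Ptger4. The processed pseudogene Gm15937 shares 15.3% of the exon bases of Ptger4 and averaged at most 1.33 counts in any group. The exons of Ptgir, Ptgs2, Hpgds, Ptges and Hpgd overlap no other gene of the annotation.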

How the data were processed

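Read counts of 12 mouse RNA-seq libraries were used, with groups of 3 taken from the sample titles. The table holds whole-number counts per gene, deposited by the authors without scaling. Tools listed in the submitters' processing notes are STAR 2.5.2b, Subread 1.5.2 with featureCounts, Trimmomatic 0.36 and bcl2fastq 2.17, and the build listed is mm10. The sources used here give no annotation release, strand setting or rule for multi-mapped reads. GENCODE M21, on the same build, gave symbols, positions and exon lengths.

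Each comparison was fitted over the whole table in edgeR 4.0.16 (R 4.3.3), after filterByExpr (minimum count 10) and TMM scaling, by quasi-likelihood F tests. A fit used its own 6 libraries, or all 12 for the difference of responses, with no covariates. Calls were made at a Benjamini-Hochberg adjusted p below 0.05, and the SE is the log2 fold change over the square root of F. CPM used TMM factors of all 12 libraries, and TPM used merged exon length and no TMM. Counting intervals are exact (Clopper-Pearson). The fits were tested on simulated data. No replicates were near-duplicates (chi-square of 2.57 to 19.5 for each degree of freedom). Alternatives used edgeR, DESeq2 1.42.0 and limma 3.58.1.

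All 9 genes are named. Of each other list, up to 3 genes with the smallest p per coculture comparison are named, and for each of the 9 with a mean CPM of 1 or more, the 2 genes most similar in pattern. Marker genes, and others marked so, were picked with their values known. The members and lists were chosen with earlier results of these data known. Promoter sequences are from RefSeq on GRCm38.p6.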

Additional observations from a re-analysis of the deposited data

Results flagged for a closer look

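Responses to coculture differed between ILC2s and eosinophils for 6 of the 7 prostaglandin genes tested, by the test of the difference itself over all 12 libraries. The ILC2 response minus the eosinophil response on the log2 scale was -2.60 for Hpgds, -2.04 for Ptges, -1.07 for Ptger4, -0.65 for Ptgs1, -0.47 for Ptger2 and -0.28 for Ptgir. For Hpgds and Ptges the change was called in ILC2s, at -2.29 and -2.42, and not in eosinophils, at 0.27 and -0.39. Ptger4 fell in ILC2s (-0.58) and rose in eosinophils (0.46). Ptger2 rose in both (0.86 and 1.30) and Ptgs1 fell in both (-1.34 and -0.68). In ILC2s Ptgs1 was only a trace, at 53 counts with eosinophils and 133 alone. In eosinophils Hpgds was likewise a trace, at 42 counts with ILC2s and 31 alone. The calls of Ptgs1 and Ptger2 were the less stable ones. That of Ptgs1 was lost with limma-voom and without any 1 of 6 libraries, and that of Ptger2 without either of 2 libraries, so that 4 to 6 of the 7 were called when 1 library was left out. Of all genes tested, 51.5% had a difference of responses called.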

How the results depend on the processing

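Over the alternatives, 520 of 544 log2 fold changes of the prostaglandin genes kept their direction and their side of the threshold, and 27 of 34 results did so under every alternative. In the cocultured cells, library totals turned Ptger4 to 0.17, and the count of prostaglandin genes called lower was 2 with library totals and 2 with upper quartile scaling, against 4 with TMM. With no low-count filter, Hpgd was added, which made 2 prostaglandin genes called higher in ILC2s with eosinophils and 1 in the difference of responses. Hpgd was then also higher in cocultured ILC2s than in cocultured eosinophils, and Ptgs2 lower in ILC2s alone than in eosinophils alone. Results that were not called also changed sign when 1 library was left out. Hpgds in eosinophils ran from -0.17, without replicate 3 of eosinophils alone, to 0.71. Ptgdr2 in eosinophils ran from -0.16, without replicate 2 of eosinophils with ILC2s, to 0.11, with -0.03 without replicate 3 of eosinophils alone. The difference of responses of Ptgdr2 ran from -2.48, without replicate 2 of the cocultured ILC2s, to 0.50 when each library was left out.

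Over all genes, eosinophils with ILC2s had 2276 genes called higher in the fit of all 12 libraries, against 1493, and 948 to 1604 when 1 library was left out. Without replicate 3 of the cocultured eosinophils the count was 948. With library totals 3664 genes were lower in ILC2s alone than in eosinophils alone, against 5796, which made 70.1% of calls higher, against 50.5%. That share was 65.8% against 51.8% between the cocultured cells, 58.0% against 45.7% in eosinophils with ILC2s, and 39.6% against 51.9% for the difference of responses. With library totals the median over all genes shifted by -0.16 in ILC2s, 0.57 between cells alone, 0.40 between cocultured cells and -0.19 in the difference of responses, and upper quartile scaling moved it by 0.23 and 0.20 between the cells.

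Over all genes, libraries with the same replicate number hardly deviated together (correlations -0.018 to 0.097). Such correlations cannot exclude that the numbers pair libraries for some genes. With the replicate block, 5318 genes were higher and 5104 lower in ILC2s. In eosinophils 2029 were higher and 2139 lower, against 1493 and 1771 without it. The calls of the prostaglandin genes were as without it. Ptgs2 and Hpgd are limited by depth, with 37 counts or fewer in any group.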
